A study of Mus musculus with 4 samples.

Results

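The immunoglobulin kappa variable segments (Igkv) were measured in RNA of sorted mouse dendritic cells. The count table lists 160 genes whose symbol starts with Igkv, and the 81 with at least 20 counts over the 4 libraries are described here, out of 46078 genes in all. All 81 are annotated as variable genes and lie on chromosome 6 between 67555497 and 70704177 (GRCm38), 30 on the plus strand and 51 on the minus strand. Of the other 79, 60 are annotated pseudogenes and 19 are variable genes. They held 147 counts together, against 72508 in the 81 segments, and 58 of them had no count in any library. Just inside the limit were Igkv4-92 with 26 counts, Igkv9-129 with 28 and Igkv5-45 with 37, and just outside it were Igkv1-88 with 18, Igkv20-101-2 with 16 and Igkv8-18 with 15.

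A kappa light chain gene is assembled in developing B cells, when RAG proteins join 1 variable segment to 1 joining segment (Igkj), and splicing then connects the joined exon to the constant exon, Igkc. The variable exon encodes the frameworks up to the third and the first 2 complementarity-determining loops of the light chain, and its last bases begin the third loop, CDR3. Each B cell and its progeny usually express 1 joined kappa or lambda chain, and plasma cells, which secrete antibody, hold far more of this RNA than resting B cells. Conventional dendritic cells are not known to assemble light chain genes, and the sort used no B cell marker.

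Both groups were mice injected with EL4-Flt3 tumour cells, from the mouse T lymphoma line EL4, 10 days before death. The Il33flx group (2 libraries, genotype CD11c-cre-Il33flx/flx) carried the loxP-flanked Il33 alleles and the Cre transgene, and the Ctrl group (2 libraries, genotype CD11c-cre) carried the Cre transgene alone. The CD11c promoter, which drives Cre, is active in dendritic cells and in part of the other myeloid cells. Spleen and mesenteric lymph node cells were sorted for CD45, MHCII, CD11b and CD103 without CD64, and mRNA libraries were made with a TruSeq kit. Age, sex, strain background and whether a library holds 1 animal or a pool are not given in the sources used here. The p-values weigh the difference between the groups against the spread between libraries of a group. Because pooling is not known, that spread may be technical.

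The Il33flx libraries held 67707682 and 69983532 gene counts and the Ctrl libraries 81217828 and 75094424. Levels are given as CPM, read counts scaled by library size and TMM factors, in which 3 counts, the limit that a count of 0 allows, are worth 0.0423 to 0.0425 CPM in Il33flx and 0.0391 to 0.0399 CPM in Ctrl. Ctrl 1 stood apart on the first principal component, which held 50% of the variance over all genes tested. Il33 itself had 4 and 0 counts in Il33flx and 4 and 8 counts in Ctrl, too few to check the genotype labels. The defining dendritic cell genes Flt3, Zbtb46, Xcr1 and Clec9a were all detected, with Flt3 at 677.8 and 854.8 CPM in Il33flx and 894.1 and 778.5 CPM in Ctrl. Itgax, the gene of CD11c, had 359.0 and 407.0 CPM in Il33flx and 646.4 and 516.8 CPM in Ctrl, lower without overlap.

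The sequences below are the segments that took the largest share of the kappa reads in a library, Igkv6-15 and Igkv8-30, and the 7 segments that the authors' deposited table calls changed. Each run is the last 60 bases of the variable exon on the gene's own strand, from GENCODE M21 transcripts of GRCm38. Capitals mark the cysteine codon that closes the third framework, and the 20 to 25 bases after it are the germline start of CDR3.
Igkv6-15, chr6:70406469-70406528, minus strand: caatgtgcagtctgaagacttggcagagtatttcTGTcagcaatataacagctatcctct
Igkv8-30, chr6:70117061-70117120, minus strand: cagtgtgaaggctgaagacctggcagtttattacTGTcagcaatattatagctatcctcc
Igkv4-90, chr6:68807179-68807238, minus strand: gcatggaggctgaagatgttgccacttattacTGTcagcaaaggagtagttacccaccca
Igkv17-121, chr6:68037259-68037318, plus strand: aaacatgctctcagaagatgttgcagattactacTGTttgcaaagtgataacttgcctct
Igkv4-50, chr6:69700767-69700826, minus strand: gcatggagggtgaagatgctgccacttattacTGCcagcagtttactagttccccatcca
Igkv8-21, chr6:70314895-70314954, minus strand: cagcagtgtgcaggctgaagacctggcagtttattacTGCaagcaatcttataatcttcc
Igkv6-13, chr6:70457501-70457560, minus strand: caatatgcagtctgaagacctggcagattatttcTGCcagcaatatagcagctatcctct
Igkv14-111, chr6:68256810-68256869, plus strand: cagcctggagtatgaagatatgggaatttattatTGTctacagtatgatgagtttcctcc
Igkv13-85, chr6:68930269-68930328, minus strand: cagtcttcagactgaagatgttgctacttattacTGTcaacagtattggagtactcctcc
All 9 kept the cysteine codon after a tyrosine-tyrosine or tyrosine-phenylalanine pair of codons, and the bases after it differ between segments of different subgroups.

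Kappa variable RNA, taken as a sum, was lower in both Il33flx libraries than in either Ctrl library, which was not tested. Summed over the 81 segments, the level was 207.4 and 196.3 CPM in Il33flx and 327.5 and 250.0 CPM in Ctrl, which is 201.9 ± 7.85 CPM against 288.8 ± 54.8 CPM (SD, n = 2 each) and a ratio of 0.699. The groups did not overlap, and without Ctrl 1, the library with the highest sum, the ratio was 0.807. It was 0.765 when the largest segment of each library was left out, so part of the difference lay in the leading segments. Igkc, the kappa constant exon that is joined to every segment, had 316.2 and 292.6 CPM in Il33flx and 522.3 and 374.9 CPM in Ctrl. Its log2 fold change was -0.56 ± 0.21 (SE), with an adjusted p of 0.995 in edgeR's quasi-likelihood test across all 14995 genes tested. In these bulk libraries fewer cells of a type and less RNA per cell cannot be told apart, and a sum got no test, because the smallest two-sided p that an exact permutation of 2 against 2 libraries allows is 0.33.

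Variable and constant counts kept nearly the same ratio in every library. Igkv counts were 0.656 and 0.671 of the Igkc counts in Il33flx and 0.627 and 0.667 in Ctrl, so the ranges overlapped. The 5 Igkj segments, whose exons are very short, had 27 and 20 counts together in Il33flx and 22 and 13 in Ctrl. The lambda constant genes Iglc1, Iglc2 and Iglc3 summed to 52.42 and 32.73 CPM in Il33flx and 45.97 and 31.99 CPM in Ctrl, with overlap. Igkc made up 85.8% (exact binomial 95% interval 85.4% to 86.2%) and 89.9% (89.5% to 90.3%) of the light chain constant counts in Il33flx, against 91.9% (91.7% to 92.2%) and 92.1% (91.8% to 92.4%) in Ctrl. Both Il33flx shares were below both Ctrl shares, and the intervals cover counting error only. Of 15 constant, joining and lambda variable genes of the light chains, 9 were tested, 6 with a positive and 3 with a negative log2 fold change, and none was called by edgeR or DESeq2. At an unadjusted p below 0.05 in edgeR, 2 were higher and 1, Igkc, was lower, against 2.02% and 1.24% of all genes.

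**Figure D1:**
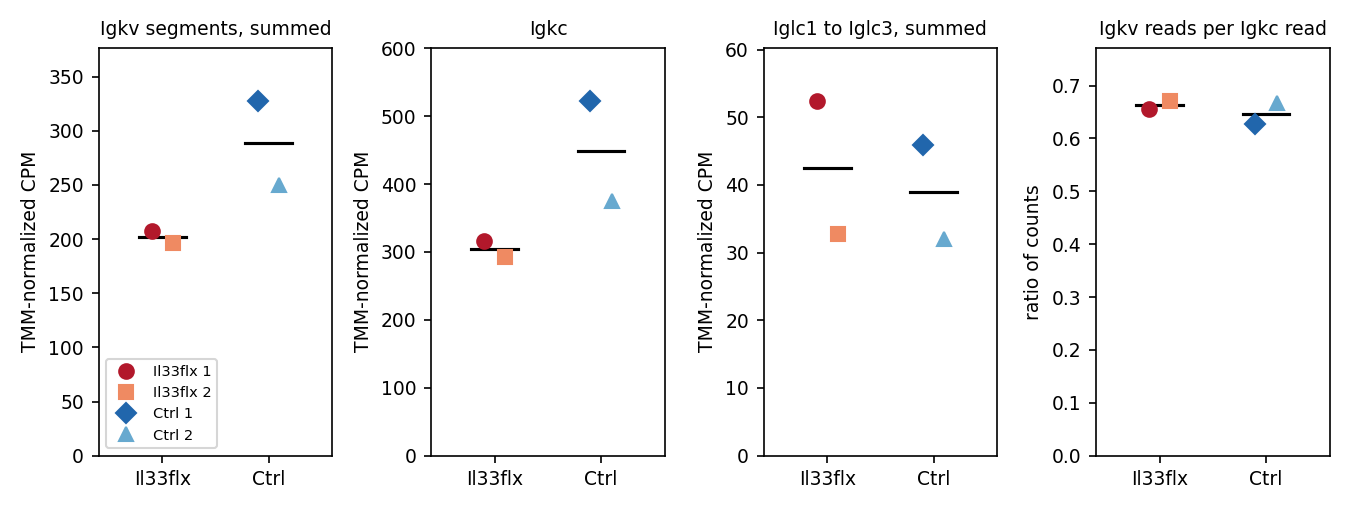
Summed Igkv CPM, Igkc CPM, summed lambda constant CPM and Igkv counts per Igkc count, with Il33flx left of Ctrl; points are libraries and bars are group means. The Igkv sum was 207.4 and 196.3 CPM in Il33flx, below the 327.5 and 250.0 CPM of Ctrl, while the lambda sum and the ratio of Igkv to Igkc overlapped between the groups.

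Many segments contributed in every library. Of the 81, 66 had counts in all 4 libraries, and 15 had none in at least 1. Mean levels per kilobase of exon ran between 0.253 CPM for Igkv4-92 and 70.2 CPM for Igkv6-15, with a median of 5.22 CPM, so Igkv6-15 stood at 13.5 times the median segment. The number of segments that together held 50% of the Igkv counts was 12 and 10 in Il33flx and 11 and 11 in Ctrl, and 90% took 41 and 35 segments in Il33flx and 37 and 39 in Ctrl. The effective number of segments, the inverse of the chance that 2 Igkv reads come from the same one, was 32.8 and 26.0 in Il33flx and 25.9 and 24.9 in Ctrl. The ratio of the means was 1.16, and it was 1.02 without Il33flx 1.

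The leading segment was Igkv6-15 in 3 of the 4 libraries. It held 6.63% (6.23% to 7.04%, exact binomial 95% interval) and 8.81% (8.34% to 9.29%) of the Igkv counts in Il33flx and 12.1% (11.7% to 12.5%) in Ctrl 1. In Ctrl 2 the leader was Igkv8-30 with 10.8% (10.4% to 11.2%), and Igkv6-15 followed it. Igkv6-15 was the only segment among the 10 largest in all 4 libraries. In all, 22 segments were among the 10 largest of some library, 9 of them in 1 library alone.

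Libraries of the same group differed more in these segments than in genes at large. Between the 2 Il33flx libraries, 48 of the 81 segments were more than 2-fold apart, with 2 counts added to each value, 59.3% against 11.3% of the 16339 genes with 20 or more counts. Between the 2 Ctrl libraries it was 54 segments, 66.7% against 19.9%. The median gap on the log2 scale was 1.31 between Il33flx libraries and 1.54 between Ctrl libraries, against 0.24 and 0.40 over all such genes. These genes were not matched to the segments for level, and the median segment had a mean level of 1.89 CPM. To turn the composition of 1 library into that of the other, 35.3% of the Igkv reads would have to move between segments within Il33flx and 39.0% within Ctrl, and 33.4% to 46.3% for the 4 pairs that cross the groups. By this measure, pairs within a group lay inside the range of pairs between groups. Log2 levels correlated with Pearson's r of 0.736 within Il33flx, 0.403 within Ctrl and 0.419 to 0.566 across groups, over the same 81 segments, which share a locus and their libraries. By correlation the Il33flx pair was above the range across groups and the Ctrl pair below it.

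**Figure D2:**
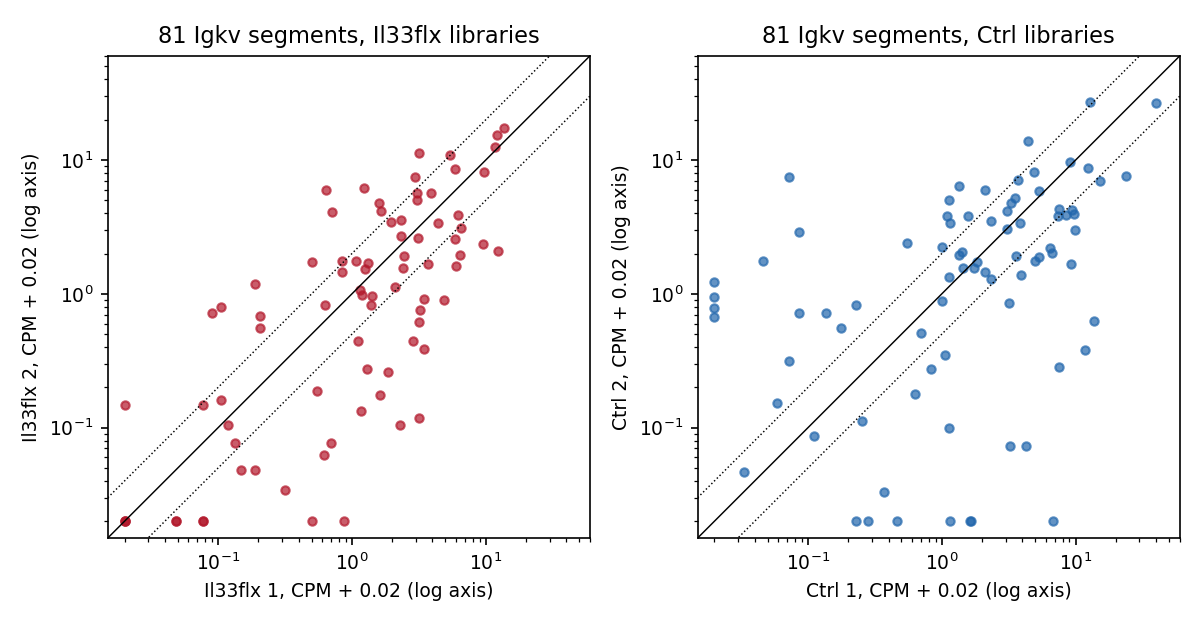
CPM of the 81 segments on log axes, with a small constant added, in the 2 libraries of Il33flx on the left and of Ctrl on the right. The solid line marks equal levels and the dotted lines a 2-fold gap, and the wide scatter goes with the 48 segments in Il33flx and 54 in Ctrl that were more than 2-fold apart.

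The widest gaps within a group were in segments at or near 0 in 1 library of that group. Igkv12-98 had 425 and 113 counts in Il33flx and 4 and 562 in Ctrl. Igkv7-33 had 173 and 134 counts in Il33flx and 324 and 4 in Ctrl. Igkv4-80 had 164 and 190 counts in Il33flx and 123 and 0 in Ctrl. In each of these, 1 Ctrl library was near or at 0 while the other had a level like that of the Il33flx libraries or above it.
Igkv4-69 had 60 and 0 counts in Il33flx and 247 and 4 in Ctrl, and Igkv4-62 had 34 and 0 in Il33flx and 87 and 0 in Ctrl. Here 1 library of each group was at 0 or, for Igkv4-69 in Ctrl, at 4 counts. Among the 10 segments that did not pass the expression filter, 3 chosen after their values were seen had nearly all of their counts in 1 Ctrl library. Igkv5-37 had 2 and 0 counts in Il33flx and 519 and 0 in Ctrl. Igkv1-99 had no count in Il33flx and 125 and 0 in Ctrl, and Igkv4-79 had none in Il33flx and 0 and 91 in Ctrl.

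Between the groups, 51 of the 81 segments had a lower mean in Il33flx and 30 a higher one. In 22 segments both Il33flx libraries were below both Ctrl libraries, 27.2% against 14.6% of the 16339 genes with 20 or more counts. In 13 segments both were above, 16.0% against 15.8%, a share near that of genes at large, and 46 overlapped. Without Ctrl 1, which was left out after the data were seen, 36 segments (44.4%, against 33.2% of genes) were lower without overlap and 21 (25.9%, against 31.2%) were higher. The segments share a locus and in part their reads, so they are not independent of each other.

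In edgeR's test across all genes, 71 segments passed the filter and none was called at an adjusted p below 0.05, where 0.00667% of all genes tested, a count of 1, was called. At an unadjusted p below 0.05, 12 segments were lower (16.9% of 71, against 1.24% of all genes) and 7 higher (9.86%, against 2.02%). Without Ctrl 1 these were 20 lower (26.3% of 76, against 2.64%) and 16 higher (21.1%, against 3.03%). The median log2 fold change of the 71 was -0.42, against 0.01 over all genes tested, with 42 negative and 29 positive. The coefficient of variation between replicates that edgeR estimated had a median of 50.5% over the segments and 24.8% over all genes, not matched for level.

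The calls depended on the tool and on single libraries. DESeq2's Wald test called 3 segments lower, against 0.143% of all genes, and 3 higher, against 0.202%, and gave no adjusted p for 2 segments, while limma-voom called none. With 1 library left out, its group has a single library, which is assumed to vary like those of the other group. In edgeR 12 segments were then called without Il33flx 1, of which 11 were lower (0.12% of genes) and 1 higher (0.0632%), and 8 were called without Ctrl 1, 4 lower (0.107%) and 4 higher (0.12%). None was called without Il33flx 2 or without Ctrl 2. The authors' deposited table, a DESeq2 comparison, calls 4 segments lower at an adjusted p below 0.05 (0.133% of its 15001 genes) and 3 higher (0.207%), and these include all 6 that DESeq2 called here.

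**Figure D3:**
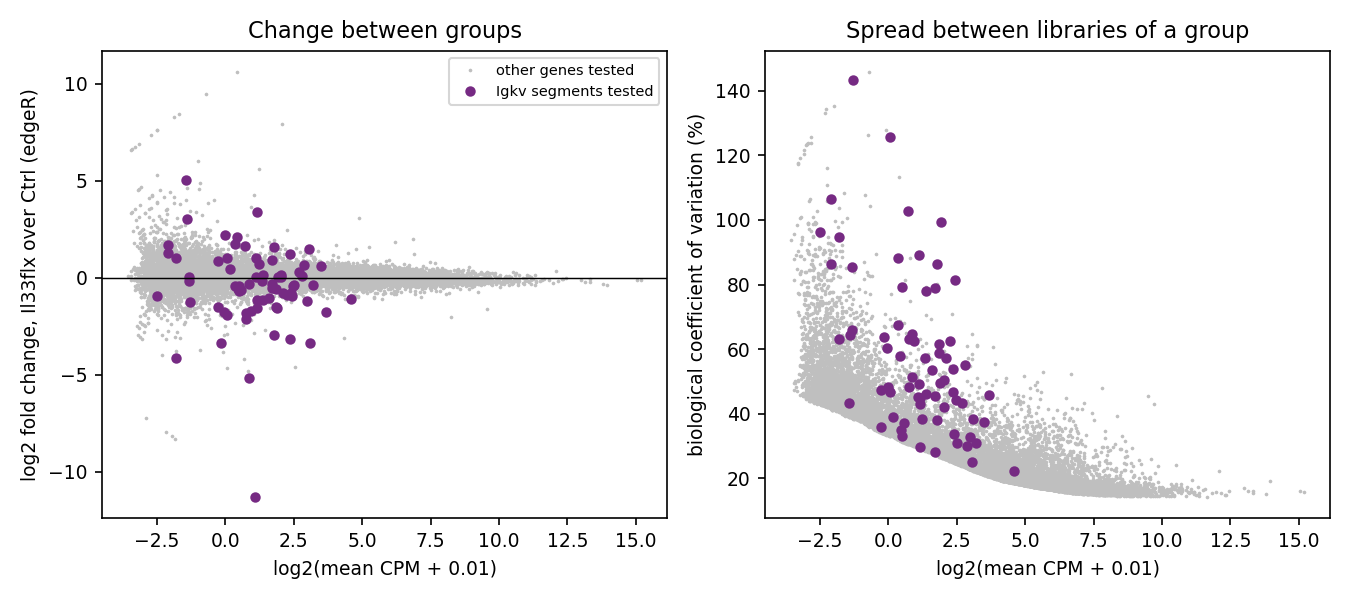
Log2 fold change of Il33flx over Ctrl (left) and edgeR's biological coefficient of variation in percent (right) against mean log2 CPM, for the 71 segments tested in purple and the other genes in grey. The segments spread to both sides of 0 with a median of -0.42, and their median variation was 50.5% against 24.8% for all genes.

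Igkv6-15, the most abundant segment, had 971 and 1225 counts in Il33flx and 3052 and 2008 in Ctrl. Its level was 15.52 ± 2.50 CPM in Il33flx and 33.22 ± 9.24 CPM in Ctrl (SD, n = 2 each), with no overlap. The log2 fold change was -1.10 ± 0.27 (SE), with an adjusted p of 0.995 in edgeR and 0.0781 in DESeq2. Igkv8-30, the second by mean level, had 669 and 166 counts in Il33flx and 974 and 2030 in Ctrl, and Igkv1-135 had 275 and 400 in Il33flx and 1170 and 524 in Ctrl. Both were lower without overlap, with log2 fold changes of -1.75 ± 0.67 and -1.22 ± 0.43 and adjusted p of 0.995 in edgeR.

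Of the 4 segments that the authors' deposited table calls lower, Igkv4-90 was at 0 in both Il33flx libraries and had 489 and 163 counts in Ctrl. Taken against a limit of 3 counts per library, its level in Il33flx was at least 100.6-fold below the Ctrl mean. The adjusted p was 0.414 in edgeR and 1.84e-08 in DESeq2. The authors' deposited table gives a log2 fold change of -10.70 and an adjusted p of 2.75e-08 for it, and a fitted change of a segment at 0 depends on the model.
Igkv17-121 had 92 and 119 counts in Il33flx and 1813 and 569 in Ctrl. Its log2 fold change was -3.38 ± 0.57, with an adjusted p of 0.647 in edgeR and 2.37e-08 in DESeq2, and the authors' deposited table gives -3.41 with an adjusted p of 1.25e-07. It was the second largest segment of Ctrl 1, with 7.21% of the Igkv counts there.
Igkv4-50 had 12 and 2 counts in Il33flx and 406 and 140 in Ctrl. Its log2 fold change was -5.15 ± 0.89, with an adjusted p of 0.647 in edgeR and 2.5e-08 in DESeq2. Igkv8-21 had 131 and 17 counts in Il33flx and 696 and 727 in Ctrl, with a log2 fold change of -3.16 ± 0.82. The Ctrl libraries were close to each other in Igkv8-21 and the Il33flx libraries were not, and the adjusted p was 0.995 in edgeR, 0.770 in DESeq2 and 0.00413 in the authors' deposited table.

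Other segments with small unadjusted p that were lower in Il33flx were Igkv3-12, Igkv4-63 and Igkv2-137. Igkv3-12 had 87 and 107 counts in Il33flx and 235 and 227 in Ctrl, with pairs of libraries close in both groups and a log2 fold change of -1.15 ± 0.35. Igkv4-63 had 21 and 1 counts in Il33flx and 101 and 145 in Ctrl. Igkv2-137 had 4 and 0 counts in Il33flx and 62 and 19 in Ctrl, and it overlaps the gene model Gm42889 on the same strand, so that its count may miss shared reads. All 3 had an adjusted p of 0.995 in edgeR.

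A smaller set was higher in Il33flx. Igkv14-111, the fourth largest segment of Il33flx 1 and the third of Il33flx 2, had 831 and 883 counts in Il33flx and 271 and 391 in Ctrl. Its level was 12.12 ± 0.493 CPM in Il33flx and 4.36 ± 1.18 CPM in Ctrl, with both pairs of libraries close. The log2 fold change was 1.47 ± 0.29, with an adjusted p of 0.874 in edgeR, 0.00582 in DESeq2 and 0.00507 in the authors' deposited table.
Igkv6-13 had 215 and 352 counts in Il33flx and 47 and 12 in Ctrl. Its log2 fold change was 3.37 ± 0.68, with an adjusted p of 0.874 in edgeR, 5.52e-05 in DESeq2 and 0.0002 in the authors' deposited table. It is a close relative of Igkv6-15, with 95.3% of the variable exon identical, and the 2 segments had opposite signs.
Igkv13-85 had 43 and 57 counts in Il33flx and 1 and 2 in Ctrl, a ratio of 35.8 with a counting interval of 11.9 to 177. Its adjusted p was 0.594 in edgeR, 0.00796 in DESeq2 and 0.00941 in the authors' deposited table. Igkv8-19 had 209 and 527 counts in Il33flx and 107 and 152 in Ctrl, and Igkv3-7 had 148 and 79 in Il33flx and 12 and 40 in Ctrl. Igkv4-70 had 12 and 82 counts in Il33flx and 7 and 5 in Ctrl, so that Il33flx 2 carried most of its reads. Igkv3-2 had 414 and 605 counts in Il33flx and 86 and 375 in Ctrl. These 4 had an adjusted p of 0.995 in edgeR and did not overlap between the groups.

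**Figure D4:**
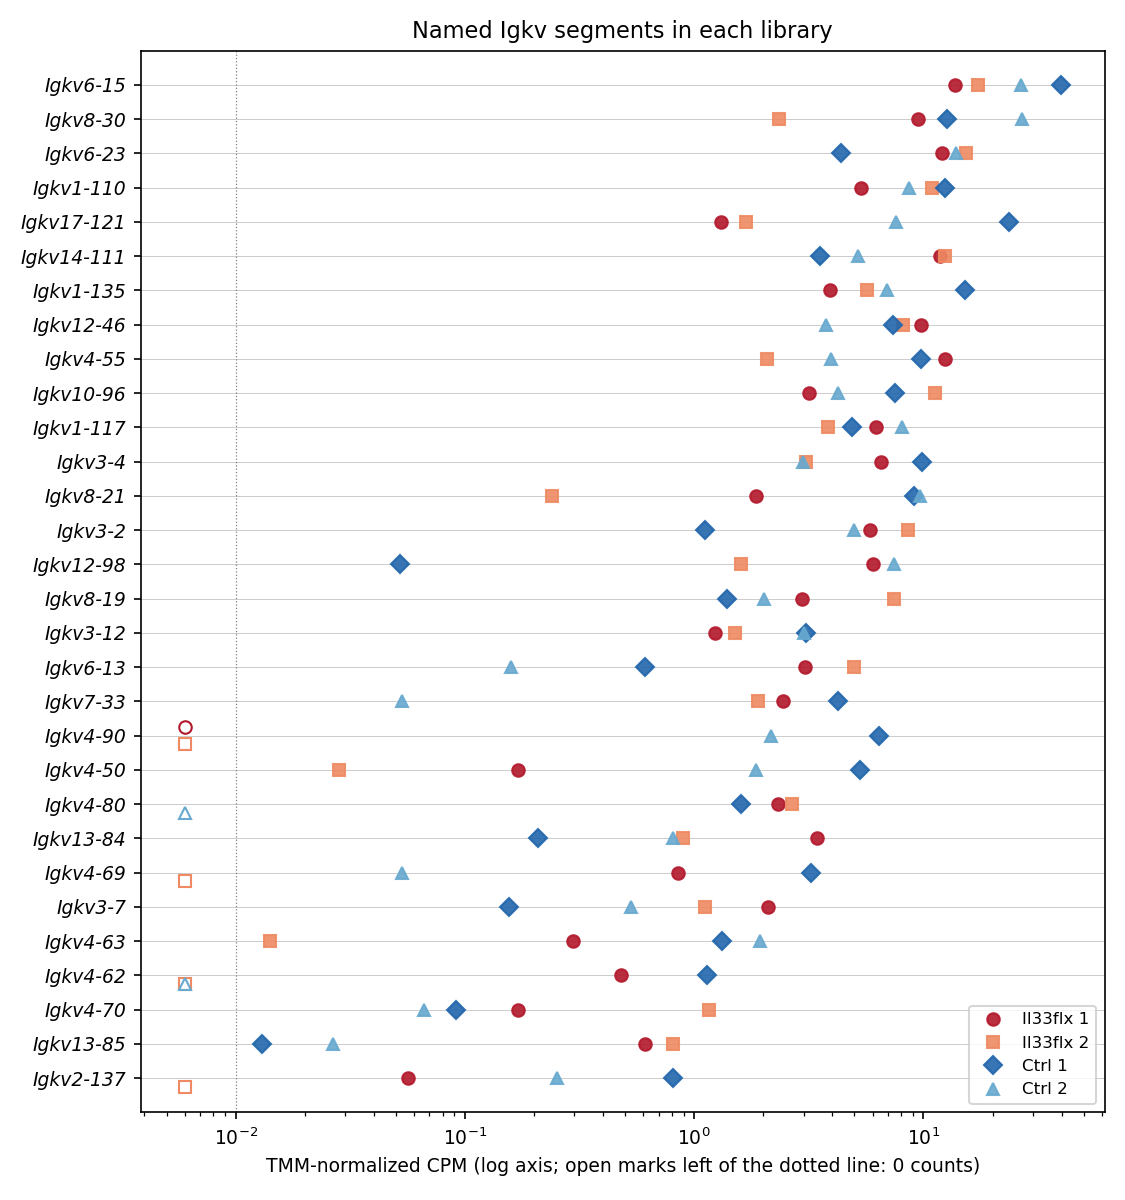
CPM on a log axis for the 30 segments taken by the naming rule, ordered by mean level, with 1 mark per library and open marks for a count of 0. Igkv4-90 sits at 0 in Il33flx and at 6.37 and 2.17 CPM in Ctrl, and Igkv13-85 at 0.609 and 0.805 CPM in Il33flx and 0.0130 and 0.0266 CPM in Ctrl.

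Among the other abundant segments the groups overlapped in most. Igkv6-23 had 851 and 1090 counts in Il33flx and 335 and 1041 in Ctrl, so that Ctrl 1 alone was low. Igkv1-110 had 378 and 773 counts in Il33flx and 951 and 649 in Ctrl, and Igkv1-117 had 437 and 272 in Il33flx and 374 and 606 in Ctrl. Igkv4-55 had 873 and 147 counts in Il33flx and 747 and 298 in Ctrl, and Igkv10-96 had 224 and 792 in Il33flx and 579 and 320 in Ctrl. In these last 2 the libraries of Il33flx were further apart than the group means. Igkv3-4 had 461 and 217 counts in Il33flx and 755 and 225 in Ctrl. The exception was Igkv12-46, with 688 and 574 counts in Il33flx and 568 and 284 in Ctrl, where both Il33flx levels, 9.74 and 8.10 CPM, were above the Ctrl levels of 7.40 and 3.78 CPM. Its log2 fold change was 0.68 ± 0.37, with an adjusted p of 0.995 in edgeR.

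The segments are related by sequence, which limits how reads can be assigned to them. Of all 31-base words in a segment's exons, a median of 50% occurred in no other gene of GENCODE M21, with a range of 13% to 100%, and 40 of the 81 segments were below 50%. In 20 pairs the variable exons were at least 95% identical. The closest was Igkv5-43 with Igkv5-45, at 3 differing bases of 298. Reads that align equally well to several places were set apart in the count table and assigned to no gene, and they made up 21.9% to 23.1% of the counted reads per library, so levels of closely related segments are uncertain.

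The pair Igkv17-121 and Igkv17-127 is shown because its members are nearly identical and had different patterns. Capitals mark the 6 of 298 bases that differ, 2 of them in the last 60 bases.
Igkv17-121, chr6:68037021-68037318, plus strand: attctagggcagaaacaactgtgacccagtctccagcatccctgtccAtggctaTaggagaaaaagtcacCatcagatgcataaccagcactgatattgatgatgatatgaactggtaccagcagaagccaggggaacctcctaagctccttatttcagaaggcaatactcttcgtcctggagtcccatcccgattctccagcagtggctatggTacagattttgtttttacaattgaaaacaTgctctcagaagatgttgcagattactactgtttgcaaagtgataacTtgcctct
Igkv17-127, chr6:67861362-67861659, plus strand: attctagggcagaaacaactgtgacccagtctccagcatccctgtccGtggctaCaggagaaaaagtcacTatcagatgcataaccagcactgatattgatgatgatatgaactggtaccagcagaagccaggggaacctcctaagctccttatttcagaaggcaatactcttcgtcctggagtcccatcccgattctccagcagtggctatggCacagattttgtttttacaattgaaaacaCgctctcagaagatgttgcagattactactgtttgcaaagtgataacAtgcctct
Igkv17-127 had 111 and 338 counts in Il33flx and 706 and 125 in Ctrl, so its groups overlapped, whereas Igkv17-121 was lower in both Il33flx libraries. The log2 fold change of Igkv17-127 was -0.78 ± 0.83, with an adjusted p of 0.995 in edgeR. The difference between the 2 segments' changes was not tested.

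In the pair Igkv13-85 and Igkv13-84, which lie next to each other on opposite strands, 9 of 298 bases differ, marked in capitals, and none of them is in the last 60.
Igkv13-85, chr6:68930269-68930566, minus strand: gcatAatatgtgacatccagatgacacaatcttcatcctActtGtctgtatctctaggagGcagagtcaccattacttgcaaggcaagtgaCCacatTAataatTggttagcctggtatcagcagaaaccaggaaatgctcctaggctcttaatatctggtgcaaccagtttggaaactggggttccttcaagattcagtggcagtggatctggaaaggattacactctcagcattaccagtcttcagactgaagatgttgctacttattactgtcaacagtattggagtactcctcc
Igkv13-84, chr6:68939770-68940067, plus strand: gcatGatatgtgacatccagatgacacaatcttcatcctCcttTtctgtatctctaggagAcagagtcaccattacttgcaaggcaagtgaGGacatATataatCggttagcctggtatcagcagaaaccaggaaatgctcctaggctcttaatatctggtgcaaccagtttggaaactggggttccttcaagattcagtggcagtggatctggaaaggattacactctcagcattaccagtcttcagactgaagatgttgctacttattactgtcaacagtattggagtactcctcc
Igkv13-84 had 242 and 63 counts in Il33flx and 16 and 61 in Ctrl, a log2 fold change of 2.08 ± 0.86 with an adjusted p of 0.995 in edgeR. Both members of the pair were higher in Il33flx without overlap, and 47.3% of the 31-base words of Igkv13-85 and 46.7% of those of Igkv13-84 occurred in no other gene. Reads that lie within the last 60 bases cannot be assigned to 1 of them.

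Segments fall into 18 subgroups, named by the first number of the symbol and defined by sequence similarity. Igkv4, the largest with 21 members, summed to 37.2 and 14.4 CPM in Il33flx and 55.0 and 40.0 CPM in Ctrl, a ratio of 0.544 without overlap, and 7 of its 21 members were lower and 2 higher without overlap, where 14.6% and 15.8% of all genes with 20 or more counts were. Igkv8 (8 members) was at 29.2 and 15.3 CPM in Il33flx and 40.6 and 47.0 CPM in Ctrl, a ratio of 0.508 without overlap. Igkv17 (2 members) had a ratio of 0.222 and Igkv1 (6 members) one of 0.647, also without overlap. Igkv6, the subgroup of Igkv6-15, overlapped between the groups, with 37.5 and 56.3 CPM in Il33flx and 65.4 and 54.9 CPM in Ctrl. Igkv13 (2 members), Igkv14 (3 members) and Igkv19 (1 member) were higher in both Il33flx libraries, with ratios of 5.41, 1.29 and 1.81. Within Igkv14 the sum rested on Igkv14-111, since the other 2 members were lower without overlap. The remaining 10 subgroups overlapped.

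Sums by strand and by position along the locus were lower in Il33flx, with 1 overlap. The 51 segments on the minus strand, opposite to Igkj and joined to it by inversion, had a ratio of Il33flx to Ctrl of 0.696, and the 30 on the plus strand, joined by deletion, had a ratio of 0.704. Members within 1 Mb of Igkj1 summed to 108 and 109 CPM in Il33flx and 162 and 132 CPM in Ctrl, and those beyond 2 Mb to 55.5 and 69.6 CPM in Il33flx and 106 and 74.5 CPM in Ctrl, both lower without overlap. Between 1 and 2 Mb, where all 21 Igkv4 segments lie, the level was 43.6 and 17.2 CPM in Il33flx and 59.5 and 43.2 CPM in Ctrl, and Il33flx 1 overlapped Ctrl 2.

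**Figure D5:**
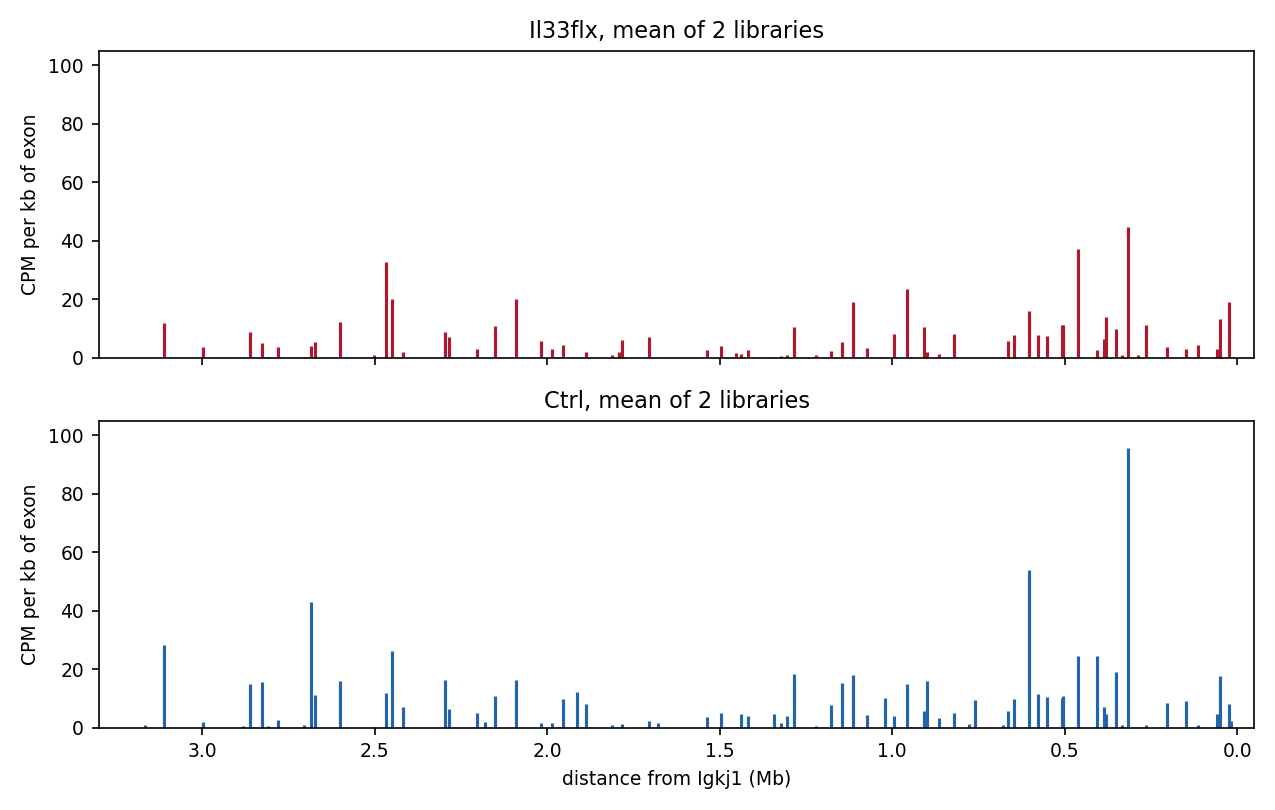
Mean CPM per kilobase of exon of each segment against its distance from Igkj1 in Mb, for Il33flx above and Ctrl below. Segments with counts lie along the whole locus in both groups, and the tallest line is Igkv6-15, at 15.52 CPM in Il33flx and 33.22 CPM in Ctrl before division by its length.

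Genes of the cells that make kappa chains were read beside the segments, from lists of markers. Of 16 B cell genes, 12 had a positive log2 fold change in Il33flx, and the median of the 16 was 0.84. In 11 of them both Il33flx libraries lay above Ctrl, where 15.8% of all genes with 20 or more counts did. The Igkv sum, in contrast, was lower. The list summed to 314.3 and 260.2 CPM in Il33flx and 244.6 and 209.5 CPM in Ctrl. The 4 genes with a negative log2 fold change were Cd22 (-0.10), Fcrla (-0.15), Cxcr5 (-0.10) and Cd72 (-0.04). Cd22 had the highest level of the list, with 77.88 and 70.25 CPM in Il33flx and 90.13 and 69.14 CPM in Ctrl. Pax5, the B cell identity factor, had 123 and 75 counts in Il33flx and 14 and 14 in Ctrl, and Cr2, the complement receptor of B cells, had 475 and 357 in Il33flx and 142 and 183 in Ctrl. None of the 16 was called by edgeR, with 8 higher and 0 lower at an unadjusted p below 0.05, against 2.02% and 1.24% of all genes. DESeq2 called 3 higher, among them Pax5 and Cr2, against 0.202% of all genes.
Of 12 plasma cell genes, 7 had a positive log2 fold change and 5 a negative one. The median was 0.16, with sums of 743.8 and 702.2 CPM in Il33flx and 716.6 and 734.8 CPM in Ctrl. Xbp1, Slamf7 and Tnfrsf13b, which made up most of this sum, are also expressed by dendritic cells. Whether other genes of the list, such as Irf4, also came from dendritic cells here was not tested. Jchain, which links secreted IgM and IgA, had 38.5 and 33.96 CPM in Il33flx and 48.71 and 44.25 CPM in Ctrl, lower without overlap like the Igkv sum. Tnfrsf17, the plasma cell receptor BCMA, had 2 and 4 counts in Il33flx and 28 and 16 in Ctrl, and Derl3 had 431 and 366 in Il33flx and 738 and 623 in Ctrl. In all, 5 of the 12 genes were higher and 5 lower without overlap, where 15.8% and 14.6% of all genes with 20 or more counts were. Among the higher ones, Mzb1, a chaperone of antibody-secreting cells, had 369 and 368 counts in Il33flx and 296 and 301 in Ctrl. Irf4 had 1785 and 1607 in Il33flx and 1124 and 1580 in Ctrl, and Fkbp11, Pou2af1 and Tnfrsf13b were the others. None of the 12 was called by edgeR or DESeq2. At an unadjusted p below 0.05 in edgeR, 0 were higher and 2 lower, against 2.02% and 1.24% of all genes. The part of B and plasma cells in the Igkv levels was not tested.

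In the recombination list, 5 of 6 genes were tested and all 5 had positive log2 fold changes, with a median of 1.32 and none called by either tool. The 6 genes summed to 4.74 and 4.23 CPM in Il33flx and 1.94 and 1.66 CPM in Ctrl. Without overlap, 3 of the 6 were higher and 0 lower, where 15.8% and 14.6% of all genes with 20 or more counts were. Dntt, an enzyme that adds bases at junctions of antigen receptor genes, had 167 and 223 counts in Il33flx and 103 and 65 in Ctrl. Rag1 had 52 and 0 counts in Il33flx and 0 and 18 in Ctrl. Of the 11 kappa locus transcription factors, 7 were positive and 4 negative, with a median of 0.16. Without overlap, 5 were higher and 1 lower, against 15.8% and 14.6% of all genes. Pax5 was the only one that DESeq2 called, as higher, against 0.202% of all genes. Pax5 and Ebf1 are also in the B cell list, and Irf4 and Pou2af1 in the plasma cell list. All 9 genes of red cells had positive log2 fold changes, with a median of 1.98. They summed to 35.89 and 15.03 CPM in Il33flx and 6.72 and 6.41 CPM in Ctrl, and DESeq2 called Car1 higher, against 0.202% of all genes. Without overlap, 7 of the 9 were higher and 0 lower, against 15.8% and 14.6% of all genes. At an unadjusted p below 0.05 in edgeR, 6 were higher and 0 lower, against 2.02% and 1.24%. T cell genes had a median of -0.48, with 6 of 7 negative. Without overlap, 4 of the 7 were lower and 0 higher, against 14.6% and 15.8% of all genes. Of 10 conventional dendritic cell genes, 2 (Itgax and Zbtb46) were lower and 0 higher without overlap, against 14.6% and 15.8% of all genes. Itgax had a log2 fold change of -0.60 ± 0.19 (SE), with an adjusted p of 0.995 in edgeR. The conventional dendritic cell, plasmacytoid dendritic cell and macrophage lists had medians of -0.13, 0.04 and 0.01. Their part in the Igkv levels was not tested.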

How the data were processed

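RNA was measured in 4 libraries, 2 per group. The values used were the deposited raw gene counts. The submitters' processing notes name GRCm38, HTSeq, STAR, DESeq2 and Trimmomatic 0.39, and strand setting, annotation release and read length are not given in the sources used here. The 5 HTSeq summary lines stayed out of library sizes. Reads were aligned to a germline genome, so reads that span a junction or carry somatic mutations may be missed. The authors' deposited table of their DESeq2 comparison lists 79 of the 81 segments, and only its log2 fold changes and p-values were used. Its normalized signal columns, per the file headers one per library, and its score column, the deposited Wald statistic, were not used.

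All 160 Igkv symbols were the same in GENCODE M21, which supplied coordinates and sequences. The members and gene lists were chosen with earlier results of these data known. Il33flx was compared with Ctrl by edgeR 4.0.16 in R 4.3.3 (quasi-likelihood F test, filterByExpr, TMM, Benjamini-Hochberg over 14995 genes, called below 0.05), and the standard error was taken as the size of the log2 change over the root of F. DESeq2 1.42.0 and limma 3.58.1 were alternatives. Segments were named by rule: the 12 with the highest mean CPM, the 8 with the smallest p in each direction, the largest of each library, those called by a tool or by the authors, and the 5 widest gaps within a group, 30 in all. Others are said to be chosen after their values were seen or stand in a sequence pair with a named one. The fits were tested on simulated data. Intervals and the limit for a count of 0 cover counting error only. One of the B cell genes is not reported here by name.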

Additional observations from a re-analysis of the deposited data

How the results depend on the processing

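Of 384 values recomputed for the 30 named segments, 340 kept their direction and their side of the threshold, 24 passed the threshold where it was not passed before, and 20 reversed. The number of segments called, 0 in edgeR, was 6 with DESeq2 and 6 with the replicate block, and 0 to 12 when 1 library was left out. The deviations of same-numbered libraries had a correlation of -0.03 over all genes and 0.19 over the segments, and nothing in the labels says that the numbers pair the libraries. The block called 2 segments higher and 4 lower. Over all genes, 1 was called, against 53 with DESeq2, 33 with the replicate block, 0 with limma-voom, library size alone, factors without immunoglobulin genes or no filter, and 0 to 36 with 1 library left out. In the marker lists 0 were called, against 4 with DESeq2, 2 with the block and 0 to 3 with 1 library left out. The Igkv ratio ran between 0.616 and 0.807 and the ratio of effective numbers between 1.02 and 1.29 with 1 library left out. Without Ctrl 1, chosen after seeing the data, segments without overlap numbered 36 lower and 21 higher, and those at an unadjusted p below 0.05 numbered 20 and 16.

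Reversed log2 fold changes were those of Igkv4-55 with limma-voom (-0.296) and the replicate block (-0.28), Igkv12-98 with DESeq2 (-0.00649) and with its size factors (-0.00228), and Igkv7-33 with DESeq2 (-0.00489). With 1 library left out, these ran between -0.00533 and 1.65 for Igkv6-23, -0.941 and 0.0525 for Igkv1-110, -1.72 and 0.888 for Igkv4-55, -0.861 and 0.92 for Igkv10-96, -0.752 and 0.0348 for Igkv1-117, -1.07 and 0.692 for Igkv3-4, -1.24 and 6.14 for Igkv12-98, -0.965 and 5.32 for Igkv7-33, -8.4 and 7.14 for Igkv4-62 and -9.93 and 2.97 for Igkv4-69. The cause was not tested.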
